A study of Mus musculus with 42 samples.

Results

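Polyamines (putrescine, spermidine and spermine) are small, positively charged metabolites that bind nucleic acids and are needed for growth. Ornithine decarboxylase (Odc1) makes putrescine, S-adenosylmethionine decarboxylase (Amd1) supplies the aminopropyl donor, and spermidine synthase (Srm) and spermine synthase (Sms) use it to build the longer amines. Spermidine/spermine acetyltransferase (Sat1) starts the way back, the oxidase Paox splits the acetylated amines, and the oxidase Smox splits spermine directly. The antizymes Oaz1 and Oaz2 bind ornithine decarboxylase and send it to the proteasome, and the antizyme inhibitor Azin1 binds antizyme in its place. These 10 genes, of 55401 in the data, are described here in 7 mouse cancer cell lines. The 10 genes were found by symbol and each symbol matched 1 row. The 10 genes were chosen with differences between RECTAS and DMSO in these libraries known from an earlier analysis. Which of those values entered the choice is not known, so all of them are treated as used. The RECTAS differences of the 10 genes are therefore given as a description, without p-values.

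RECTAS, a synthetic compound known to alter splice site choice, is thought to act on CLK kinases and SR proteins. Each line received RECTAS at 10 µM, dissolved in DMSO at 0.1%, or the same amount of DMSO without the compound. Cells were collected after 6 h and polyadenylated RNA was sequenced in 3 libraries for each line and treatment, 42 in all. B16 is labelled a melanoma line, CT26 a colorectal adenocarcinoma line, EG7 a lymphoma line, LLC a lung carcinoma line, MC38 a colorectal carcinoma line, Pan02 a pancreatic adenocarcinoma line and WEHI3 a leukemia line. Per the labels' protocols, CT26 and MC38 were grown in RPMI-1640 and the other lines in DMEM, so medium and line cannot be told apart in the 10 pairs of lines that differ in medium. The other 11 pairs of the 21 share one. Nothing in the labels tells whether replicates were separate cultures. Where they were not, the spread behind every p-value here is technical.

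Values are TPM, the abundance unit that sums to the same total in each library and corrects for gene length. The sums lay between 999998 and 1000003 TPM, each library listed 11001 to 12205 genes at 1 TPM or more, and the files give no read counts, so the depth is unknown. All 6 melanocyte markers reached 1 TPM in B16, 5 of 6 T lymphoid markers in EG7 and 5 of 6 myelomonocytic markers in WEHI3, where the T lymphoid genes Thy1 and Lck also did. The 6 T lymphoid markers summed to 2095 to 2253 TPM per library in WEHI3, above the 1426 to 1524 TPM in EG7. Some markers of other lists also reached 1 TPM, such as the melanocyte marker Mlana in EG7. Of 6 epithelial markers 4 reached 1 TPM in Pan02, 2 in LLC and 0 in CT26 and MC38, the lines labelled as colorectal. Mesenchymal markers reached 1 TPM in every line, from 2 of 6 in EG7 and WEHI3 to 6 of 6 in CT26.

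A shift in splicing can bear on several of these genes. In mouse and human cells, Sat1 is known to carry a poison exon, whose inclusion places a stop codon early in the message and exposes it to nonsense-mediated decay, and high polyamine levels are known to favour skipping of that exon. In the GENCODE M21 annotation of GRCm38, Sat1 (ENSMUSG00000025283) lies on the minus strand at chrX:155213132-155216449, and its poison exon, 110 bases long, lies at chrX:155215121-155215230 between exons 3 and 4 of the 6-exon coding transcript. The 2 junctions are shown because they are the known switch of the gene, each with 40 bases of exon 3 in lower case (chrX:155215601-155215640) and the bases that follow in capitals, 5′ to 3′ on the minus strand. With the exon included, the first 14 bases of the poison exon (chrX:155215217-155215230) end in the stop codon TAG, after 71 codons in place of 171. With the exon skipped, exon 3 runs on into coding exon 4 (chrX:155214095-155214134).
Sat1, poison exon included: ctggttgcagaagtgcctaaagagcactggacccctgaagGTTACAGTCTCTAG
Sat1, poison exon skipped: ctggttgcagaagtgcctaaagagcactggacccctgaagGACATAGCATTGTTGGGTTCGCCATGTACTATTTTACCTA

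The deposited values are per gene and add both forms together, so inclusion of the poison exon was not measured. The annotation lists nonsense-mediated decay transcripts also for Smox (3), Odc1 (2), Azin1 (2), Sms (1) and Paox (1), and 0 for Amd1, Srm, Oaz1 and Oaz2. The antizymes carry another switch. Their coding sequence is read through only when the ribosome skips 1 base at a stop codon, a frameshift known to be promoted by polyamines, so antizyme protein is set by translation as well as by the RNA measured here. The frameshift windows of Oaz1 (chr10:80828268-80828322) and Oaz2 (chr9:65686245-65686299), both on the plus strand, are shown to make this site visible, with 24 bases on each side in lower case. The 7 capitals are the last codon of the first frame, the skipped T that the annotation leaves out of the coding sequence, and the next codon. The windows were identical at 45 of 55 positions, the 7 capitals among them.
Oaz1: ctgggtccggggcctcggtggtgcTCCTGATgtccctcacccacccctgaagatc
Oaz2: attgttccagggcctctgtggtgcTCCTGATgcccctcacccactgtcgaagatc

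Sat1 was higher with RECTAS in all 7 lines, and in each of them the lowest RECTAS library lay above the highest DMSO library. In EG7, the line with the lowest level, the DMSO libraries held 36.3, 39.5 and 39.2 TPM and the RECTAS libraries 52.1, 53.0 and 55.0 TPM. The means were 38.4 ± 1.76 and 53.4 ± 1.45 TPM (SD, n = 3), 39.1% higher, or 0.47 ± 0.042 (SE) on the scale of log2(TPM + 1). That was the largest relative difference of the 7 lines, at the lowest level of Sat1.

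Pan02 and CT26 followed. Pan02 held 128.6, 137.5 and 140.3 TPM with DMSO and 175.9, 179.6 and 182.6 TPM with RECTAS, a log2 difference of 0.40 ± 0.042 (SE). CT26 held 133.4, 136.7 and 140.7 TPM with DMSO and 174.8, 180.4 and 183.2 TPM with RECTAS, a log2 difference of 0.39 ± 0.033 (SE). In both lines the gap between the groups was wider than the range of either group, and the DMSO and RECTAS means of the 2 lines were nearly equal.

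In MC38 the DMSO libraries held 42.1, 44.1 and 41.6 TPM and the RECTAS libraries 52.7, 51.1 and 51.1 TPM, a log2 difference of 0.27 ± 0.034 (SE). In B16 the DMSO libraries held 134.7, 134.0 and 135.0 TPM and the RECTAS libraries 159.3, 162.9 and 162.4 TPM, a log2 difference of 0.26 ± 0.029 (SE). B16 had the tightest DMSO libraries, with an SD of 0.505 TPM. WEHI3 held 114.9, 117.6 and 123.0 TPM with DMSO and 135.5, 137.0 and 141.9 TPM with RECTAS, a log2 difference of 0.22 ± 0.033 (SE). LLC, with 87.0, 83.7 and 86.5 TPM with DMSO and 95.8, 97.4 and 101.2 TPM with RECTAS, had the smallest log2 difference, 0.19 ± 0.040 (SE). There too the 2 groups did not overlap.

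**Figure D1:**
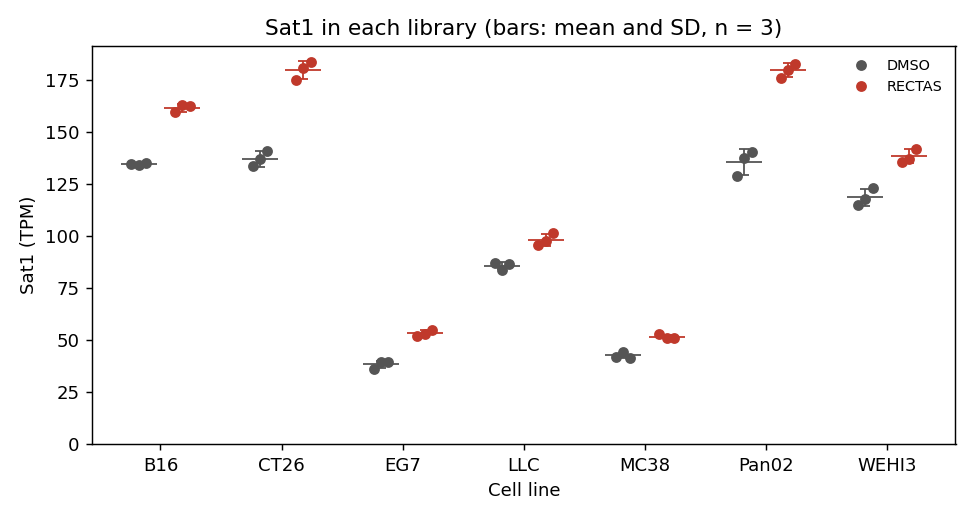
Sat1 in TPM (vertical axis, from 0) in each library of 7 lines (horizontal axis), DMSO in grey and RECTAS in red, with 3 points per group and the mean and SD as bars. Every RECTAS library lies above every DMSO library of its line, from 38.4 to 53.4 TPM (means) in EG7 to 85.7 to 98.1 TPM in LLC.

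Over the 7 lines the mean Sat1 level was 98.9 TPM with DMSO and 123 TPM with RECTAS, and the mean log2 difference was 0.31 ± 0.013 (SE). That SE, like every SE and p-value of a mean over lines below, comes from the spread between libraries within groups. It holds none of the spread between lines, which for Sat1 ran from 0.19 to 0.47. Of the 8775 genes with means of 1 TPM or more in all lines, 57 had a larger mean difference. Separation of all RECTAS libraries above all DMSO libraries in every line was seen in 0.365% of those genes. In the fits of single lines (limma on log2(TPM + 1), Benjamini-Hochberg adjusted p under 0.05), Sat1 was called in B16 (where 4.1% of all tested genes were called), CT26 (1.99%), EG7 (3.28%), MC38 (1.29%), Pan02 (1.68%) and WEHI3 (2.08%). It was not called in LLC, where 0.194% of genes were. Since Sat1 was chosen with this difference known, nothing is read from those calls. The calls in B16, MC38 and WEHI3 were lost when some single libraries were left out: DMSO replicates 1 or 2 or RECTAS replicate 3 in B16, any but DMSO replicate 2 in MC38, and any but DMSO replicate 3 in WEHI3. Over all alternatives the Sat1 difference was 0.25 to 0.33 in B16, 0.26 to 0.30 in MC38 and 0.20 to 0.25 in WEHI3. Sat1 was the only one of the 10 genes called in any line as fitted here, and whether its difference varied between lines was not tested.

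Across the 10 genes and 7 lines, 66 pairs of gene and line passed the filter of a mean of 1 TPM. All 3 RECTAS libraries lay above all 3 DMSO libraries in 14 of these pairs, against 10.1% of all tested genes in the 7 lines together. Of the 14, 7 were from Sat1, which was chosen by this difference. Without Sat1, 7 of 59 pairs lay above, close to the share of all genes. All RECTAS libraries lay below in 8 of the 66 pairs, no larger a share than the 14.2% of all genes, and 4 of the 8 were Azin1. The other 44 pairs overlapped.

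**Figure D2:**
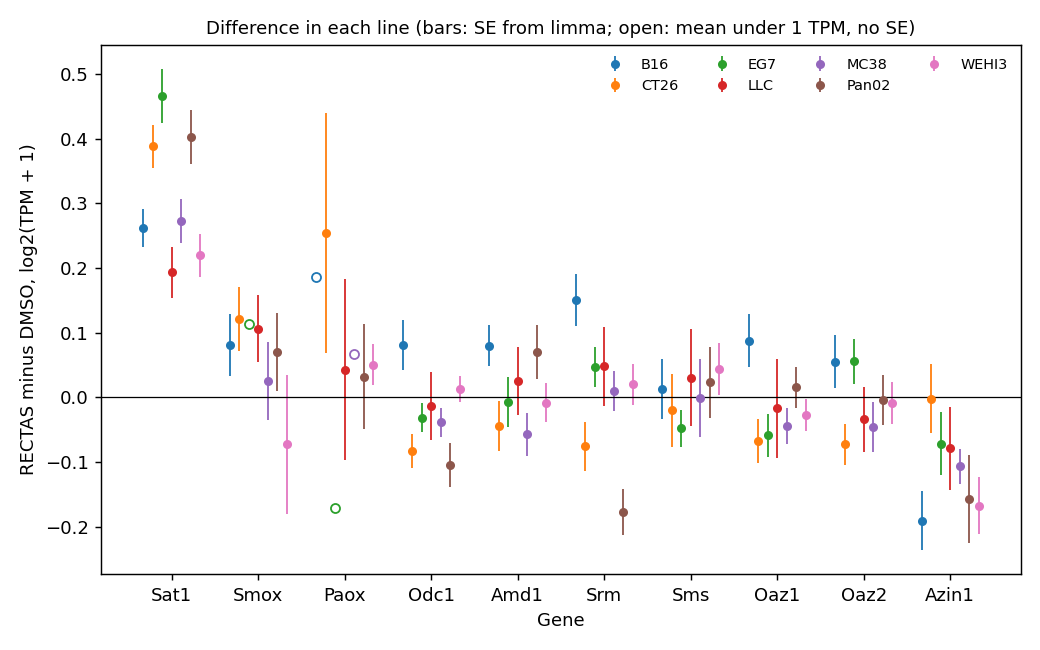
RECTAS minus DMSO on the log2(TPM + 1) scale (vertical axis) for the 10 genes (horizontal axis), 1 point per line, with the SE from limma as bars; open points are genes with a mean under 1 TPM in that line, which were not tested. Sat1 lies between 0.19 and 0.47 in all lines and Azin1 between -0.19 and -0.002, while the other genes scatter around 0.

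The oxidases that work beside Sat1 were less abundant than Sat1 in every line, and neither was called in a line. Smox was higher with RECTAS in 6 of 7 lines. In LLC it held 37.7, 40.4 and 36.8 TPM with DMSO and 40.5, 42.5 and 40.8 TPM with RECTAS, groups that were apart by less than the spread within either. The groups were also apart in B16 and CT26 and overlapped in the others, and the largest log2 difference was 0.12 ± 0.050 (SE), in CT26. Paox, which acts on the acetylated amines that Sat1 makes, was most abundant in WEHI3 and Pan02. In WEHI3 it held 39.6, 41.3 and 39.8 TPM with DMSO and 41.46, 41.59 and 42 TPM with RECTAS, a log2 difference of 0.05 ± 0.031 (SE). In Pan02 the groups overlapped, at 18.5 ± 1.63 and 18.9 ± 1.51 TPM (SD, n = 3). Smox was under 1 TPM in EG7 and Paox in B16, EG7 and MC38, so 8 of the 10 genes entered the fit over all lines.

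The synthesis genes showed no common direction. Odc1 was lower in 5 lines and higher in 2, with a mean log2 difference of -0.03 ± 0.012 (SE). In Pan02 it held 277.3, 273.0 and 280.3 TPM with DMSO and 249.1, 259.7 and 263.8 TPM with RECTAS, and in CT26 650.2, 659.2 and 674.6 TPM and 618.9, 634.7 and 618.7 TPM. In these 2 lines all RECTAS libraries lay below all DMSO libraries, and in the other 5 the groups overlapped. Amd1 had a mean log2 difference of 0.008 ± 0.014 (SE) and was apart in B16 alone, where it held 145.0, 145.9 and 151.5 TPM with DMSO and 156.4, 157.0 and 154.1 TPM with RECTAS. Sms overlapped in all 7 lines, with log2 differences from -0.05 to 0.04.

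Srm, the enzyme that makes spermidine, lay on opposite sides of 0 in B16 and Pan02. In B16 it held 225.3, 220.8 and 211.5 TPM with DMSO and 233.5, 248.0 and 248.7 TPM with RECTAS, a log2 difference of 0.15 ± 0.040 (SE). In Pan02 it held 228.4, 218.4 and 213.6 TPM with DMSO and 191.7, 196.7 and 195.1 TPM with RECTAS, a log2 difference of -0.18 ± 0.036 (SE). The groups did not overlap in either line, although the DMSO levels of the 2 lines were nearly the same. In the other 5 lines the groups overlapped, and the mean over the 7 lines was 0.003 ± 0.015 (SE).

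Azin1, the antizyme inhibitor, had a lower mean with RECTAS in all 7 lines, but in CT26 the means were almost equal (153.861 and 153.847 TPM). In B16 it held 65.0, 65.2 and 69.2 TPM with DMSO and 60.5, 58.1 and 55.7 TPM with RECTAS, a log2 difference of -0.19 ± 0.046 (SE). The median difference of all genes tested in B16 was -0.06, the farthest from 0 of the 7 lines. In WEHI3 Azin1 held 56.3, 57.4 and 58.8 TPM with DMSO and 49.9, 54.4 and 49.1 TPM with RECTAS, a log2 difference of -0.17 ± 0.044 (SE). In MC38, the line with the most Azin1, the DMSO libraries held 226.2, 225.6 and 224.8 TPM and the RECTAS libraries 213.6, 212.8 and 201.8 TPM. The groups were apart in those 3 lines and in Pan02, and they overlapped in CT26, EG7 and LLC. CT26 had the smallest log2 difference, -0.002 ± 0.053 (SE).

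The mean Azin1 level over the lines was 113.9 TPM with DMSO and 106.7 TPM with RECTAS, a mean log2 difference of -0.11 ± 0.022 (SE). In the fit over all lines (limma with Benjamini-Hochberg adjustment over 8775 genes), 15.9% of genes were called lower, Azin1 among them, and 9.86% higher, Sat1 among them. Nothing is read from these calls either, since the genes were chosen with this comparison known. The median difference of all 8775 genes was -0.003 and that of the 8 genes tested here -0.002. The antizymes themselves had mean log2 differences of -0.02 ± 0.017 (SE) for Oaz1 and -0.008 ± 0.013 (SE) for Oaz2, and were not called. Oaz1 overlapped in all 7 lines. Oaz2 was apart in opposite directions in 2 lines. It held 81.9, 82.3 and 85.3 TPM with DMSO and 79.3, 80.1 and 77.5 TPM with RECTAS in CT26. In EG7 it held 28.9, 29.3 and 29.2 TPM with DMSO and 31.3, 29.4 and 30.2 TPM with RECTAS.

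**Figure D3:**
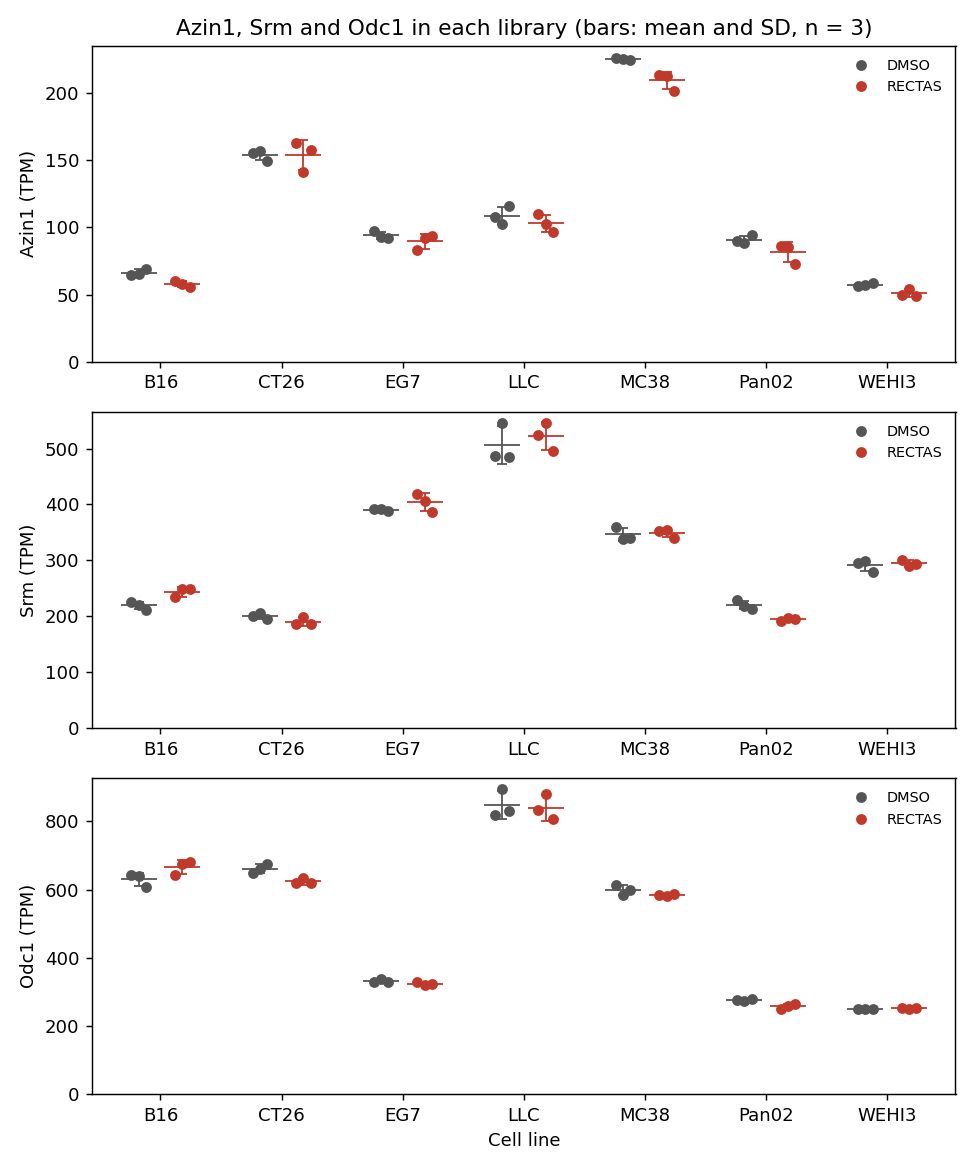
Azin1, Srm and Odc1 in TPM (vertical axes, from 0) in each library of 7 lines (horizontal axis), DMSO in grey and RECTAS in red, with 3 points per group and the mean and SD as bars. The Azin1 groups are apart in B16, MC38, Pan02 and WEHI3, and Srm is higher with RECTAS in B16 (219 to 243 TPM) and lower in Pan02 (220 to 195 TPM).

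Without RECTAS, the level of every one of the 10 genes differed between the 7 lines (limma F-test with 6 degrees of freedom on the 21 DMSO libraries, adjusted p from 2.8e-21 for Smox to 4.7e-10 for Oaz1). The same test called 97.3% of all 16108 genes tested, so a difference between lines is the rule. The genes are therefore described by how far they differed and by which neighbours in the order of lines could not be separated. Of all 210 contrasts of 2 lines for the 10 genes, 191 (91.0%) passed an adjusted p of 0.05, against 72.9% over all genes tested. The 16108 genes needed a mean of 1 TPM in only 1 line, while most of the 10 lay far above it in every line. The 2 shares are therefore not like for like. Of the 60 contrasts between neighbouring lines, the closest ones, 43 passed and 17 did not. On the log2(TPM + 1) scale the range from the lowest to the highest line had a median of 1.63 over all genes. Above that median lay Paox (5.14), Smox (4.64), Sms (2.24), Azin1 (1.95), Sat1 (1.81) and Odc1 (1.76). Oaz2 (1.48), Srm (1.33), Amd1 (1.29) and Oaz1 (0.73) lay below it.

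Sat1 was highest in 3 lines that were nearly equal. CT26 (136.9 ± 3.64 TPM, SD, n = 3), Pan02 (135.5 ± 6.11 TPM) and B16 (134.5 ± 0.505 TPM) could not be separated (limma, adjusted p = 0.781 and 0.889 between neighbours). WEHI3 held 118.5 ± 4.12 TPM and LLC 85.7 ± 1.78 TPM, and each differed from the line above it. MC38 (42.6 ± 1.34 TPM) and EG7 (38.4 ± 1.76 TPM) were lowest and differed from each other (adjusted p = 0.0021). The ratio of the highest to the lowest line was 3.57. CT26 and MC38, both labelled colorectal and grown in the same medium, held the highest and the next to lowest level.

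The 2 oxidases had the widest ranges, and their orders differed. Smox held 42.1 ± 3.12 TPM in Pan02, 38.3 ± 1.89 TPM in LLC and 35.9 ± 1.14 TPM in B16, neighbours that were not separated (adjusted p = 0.0509 and 0.172). It held 22.0 ± 0.965 TPM in CT26 and 20.6 ± 1.28 TPM in MC38, also not separated (adjusted p = 0.156). In the lymphoma and leukemia lines it was low, at 2.89 ± 0.162 TPM in WEHI3 and 0.733 ± 0.0503 TPM in EG7, a ratio of highest to lowest of 57.4. Paox was highest in WEHI3, at 40.2 ± 0.898 TPM, and next in Pan02, at 18.5 ± 1.63 TPM. The remaining lines held 1.94 ± 0.481 TPM (LLC), 1.60 ± 0.245 TPM (CT26), 0.530 ± 0.240 TPM (MC38), 0.410 ± 0.104 TPM (B16) and 0.170 ± 0.110 TPM (EG7). WEHI3 thus had more Paox than Smox, B16, CT26, LLC and MC38 had at least 20 TPM of Smox beside under 2 TPM of Paox, Pan02 had over 18 TPM of both, and EG7 had neither above 1 TPM.

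**Figure D4:**
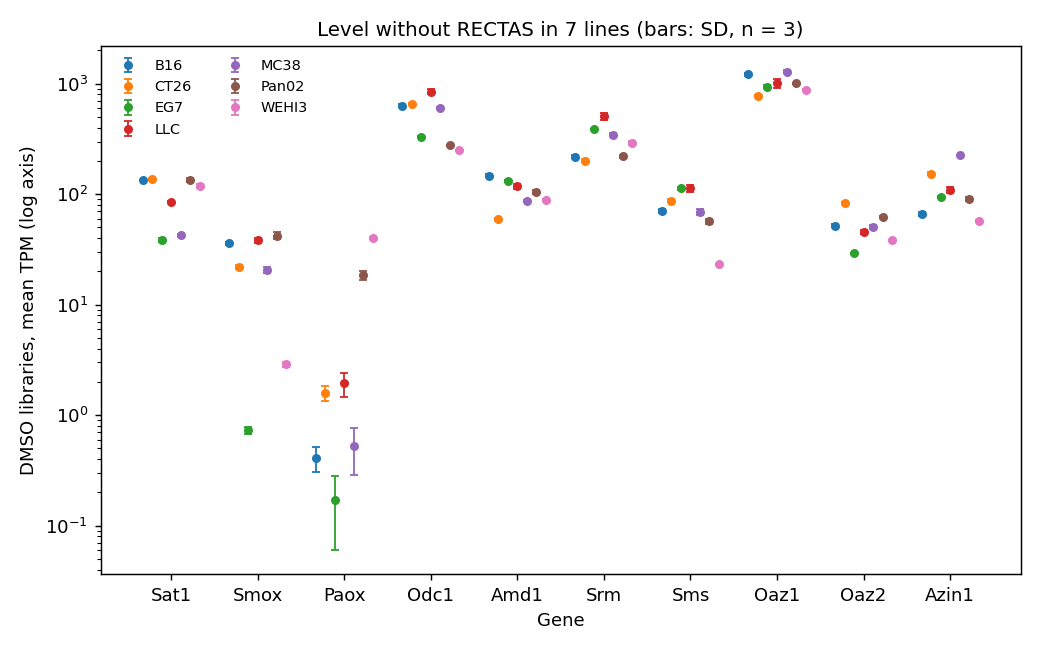
Mean TPM of the DMSO libraries (vertical log axis) for the 10 genes (horizontal axis), 1 point per line, with the SD of 3 libraries as bars. Oaz1 spans the narrowest range, 779 to 1290 TPM, and Paox the widest, 0.170 to 40.2 TPM.

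Oaz1 was the most abundant of the 10 genes in all 7 lines and the least variable between them, from 779 ± 18.1 TPM in CT26 to 1290 ± 42.6 TPM in MC38, a ratio of 1.66. Oaz2 was lower, from 29.1 ± 0.218 TPM in EG7 to 83.1 ± 1.86 TPM in CT26. CT26 thus had the least Oaz1 and the most Oaz2. Azin1 ranged from 57.5 ± 1.23 TPM in WEHI3 and 66.4 ± 2.40 TPM in B16 to 153.9 ± 3.82 TPM in CT26 and 225.5 ± 0.669 TPM in MC38, a ratio of 3.92. Neighbours that were not separated were MC38 and B16 (adjusted p = 0.0985), Pan02 and LLC (0.980) and LLC and EG7 (0.0635) for Oaz1, B16 and MC38 (0.352) for Oaz2, and EG7 and Pan02 (0.234) for Azin1.

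Odc1 came next after Oaz1 in 5 lines, and in EG7 and WEHI3 Srm stood between them. It was highest in LLC (847.9 ± 40.4 TPM), then CT26 (661.3 ± 12.4 TPM), B16 (629.9 ± 20.1 TPM) and MC38 (599.4 ± 13.8 TPM), and lower in EG7 (331.6 ± 4.99 TPM), Pan02 (276.9 ± 3.70 TPM) and WEHI3 (249.9 ± 0.611 TPM). All 6 pairs of neighbours differed, the closest at adjusted p = 0.0453. LLC also had the most Srm, 505.6 ± 33.9 TPM against 200.6 ± 5.88 TPM in CT26, and shared the most Sms with EG7, 113.8 ± 8.02 and 112.9 ± 2.53 TPM (adjusted p = 0.906). WEHI3 had the least Sms, 23.3 ± 0.198 TPM. Amd1 was highest in B16 (147.5 ± 3.49 TPM) and lowest in CT26 (59.6 ± 0.791 TPM). The other neighbours that were not separated were LLC and CT26 (0.235), MC38 and B16 (0.459) and B16 and EG7 (0.0563) for Paox, WEHI3 and MC38 (0.517) for Amd1, Pan02 and B16 (0.952) for Srm, and B16 and MC38 (0.594) for Sms.

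The order of the lines was nearly the same with RECTAS. Spearman's rho between the orders of the 7 lines in DMSO and in RECTAS libraries was 0.929 for Paox, 0.964 for Sat1, Odc1, Srm and Oaz1, and 1 for the other genes. For Sat1 the change of place was between MC38 and EG7, at 51.6 ± 0.886 and 53.4 ± 1.45 TPM with RECTAS. Over the 14 groups of line and treatment, the genes whose log2(TPM + 1) followed Sat1 most closely, of 8767 compared, were Ubald2 (Pearson r = 0.959), Tmem176b (0.933), Ubxn6 (0.923), Tmem176a (0.923) and Fam168a (0.920). The 14 groups come from only 7 lines, and among these 5 genes the mean RECTAS difference ran from -0.07 (Tmem176b) to 0.06 (Ubxn6), against 0.31 for Sat1, so the likeness is one of levels between lines.

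Some levels carry a further limit, since near-identical copies can share reads with the genes described. The annotated transcript of Sms-ps matched that of Sms at 100% of 1101 aligned bases, and the files list Sms-ps at 7.48 to 39.2 TPM over the 14 groups. Oaz1-ps matched Oaz1 at 99.9% of 684 bases and is listed at 49.3 to 87.5 TPM. Amd2 matched Amd1 at 99.7% of 3198 bases and is listed at 0.32 to 9.60 TPM. Oaz2-ps matched Oaz2 at 98.5% of 537 bases and is listed at 0 to 2.05 TPM. How reads were divided between each gene and its copy is unknown. The levels of Sms, Oaz1, Amd1 and Oaz2 are therefore uncertain by an unknown amount, which the TPM listed for the copies does not bound. Sms-ps was highest in EG7 with DMSO, so the near-equal Sms levels of LLC and EG7 carry this limit. Sat1, Smox and Srm overlap no other annotated gene and have no such copy in the annotation by name, while Paox overlaps Echs1 and Azin1 overlaps Gm49077, both on the opposite strand. Odc1, Oaz1 and Azin1 hold the short genes Gm22748, Mir1982 and Mir6951 on their own strand.

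Replicates also varied along a shared axis that touched several of these genes. The first principal component of the deviations from the group means, over all 42 libraries, took 14.5% of the variance. As a description over those libraries, its Pearson r was 0.885 with Oaz1, 0.812 with Odc1 and 0.629 with Srm, and -0.578 with Sms, -0.499 with Amd1 and -0.416 with Azin1. For Sat1 it was -0.004. The DMSO library of LLC with replicate number 2 lay farthest out and held 1112 TPM of Oaz1 and 894 TPM of Odc1, against 972 and 948 TPM and 819 and 831 TPM in the other 2 libraries of that group. The part of this axis in the differences of Odc1, Srm and Azin1 was not tested.

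**Figure D5:**
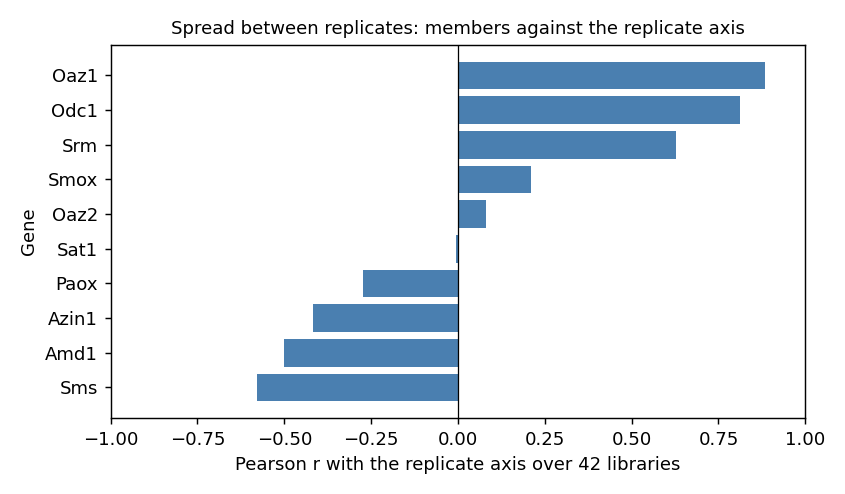
Pearson r (horizontal axis) between each gene's deviations from its group means and the first principal component of the deviations of all genes, over 42 libraries. Oaz1 (0.885) and Odc1 (0.812) move most with this axis, and Sat1 (-0.004) does not.

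The wider pathway was followed in 6 lists with 45 genes beside the 10. Of these, 23 reached 1 TPM in every line and were tested on average over the lines. With RECTAS 3 rose, 6 fell and 14 were not called (limma, adjusted p under 0.05 over all 8775 genes), where 9.86% of all genes rose and 15.9% fell. Their median log2 difference was -0.02, against -0.003 for all genes. The lists were drawn up with results of these data known, so the adjusted p-values of their genes are given as a description only.

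The list of S-adenosylmethionine supply and methionine salvage, which feeds Amd1 and recycles the by-product of Srm and Sms, held 10 of 23 tested genes. Of these, 1 was called higher and 4 lower, against 9.86% and 15.9% of all genes. Since the list was drawn up with results known, nothing is read from that count. Mtr, which methylates homocysteine to methionine, fell in the mean over lines from 14.5 to 11.7 TPM, a log2 difference of -0.30 ± 0.027 (SE, adjusted p = 6.9e-11), and was lower in all 7 lines. Its means went from 11.8 ± 0.237 to 8.61 ± 1.19 TPM (SD, n = 3) in B16 and from 10.9 ± 0.435 to 7.51 ± 0.275 TPM in Pan02, and the groups overlapped only in MC38. Got1, an aspartate aminotransferase, fell by 0.14 ± 0.011 (SE) on the log2 scale (adjusted p = 1.9e-11), with all RECTAS libraries below all DMSO libraries in every line but B16. In the fits of single lines, Mtr was called lower in 2 lines and Got1 in 1. Of all tested genes, 0.194% (LLC) to 4.1% (B16) were called in a line, in either direction. The salvage enzymes Apip (-0.13, adjusted p = 1.1e-04) and Enoph1 (-0.06, adjusted p = 0.020) also fell. Mat2b, the regulatory subunit of methionine adenosyltransferase, rose by 0.05 ± 0.013 (SE, adjusted p = 0.0055), while its catalytic partner Mat2a was not called (-0.04, adjusted p = 0.082). Mtap, the enzyme that takes up the by-product of Srm and Sms, was not called either (0.01, adjusted p = 0.48).

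Among genes of arginine and ornithine supply, 4 of 10 were tested. The arginine transporter Slc7a1 rose by 0.07 ± 0.024 (SE, adjusted p = 0.024, higher in 6 of 7 lines) and Aldh18a1, which makes the proline and ornithine precursor, fell by 0.04 ± 0.015 (SE, adjusted p = 0.033). Asl (-0.05, adjusted p = 0.24) and Oat (-0.02, adjusted p = 0.29) were not called. In polyamine transport, 3 of 9 genes were tested, and the polyamine transporter Atp13a3 fell by 0.14 ± 0.042 (SE, adjusted p = 0.014, lower in 6 of 7 lines), while Slc3a2 (0.01, adjusted p = 0.33) and Atp13a2 (-0.02, adjusted p = 0.69) were not called. Atp13a3 was called lower in 1 of the fits of single lines. Without the line B16, its mean difference was -0.08 and was no longer called (adjusted p = 0.18).

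Hypusine synthesis uses spermidine to modify the translation factor encoded by Eif5a. Of the 3 genes tested, Dhps, which attaches the spermidine part, rose by 0.07 ± 0.021 (SE, adjusted p = 0.015, higher in 6 of 7 lines), and Dohh (0.03, adjusted p = 0.25) and Eif5a (-0.03, adjusted p = 0.19) were not called. The calls of Dhps, Slc7a1, Aldh18a1 and Enoph1 each depended on 1 or more single lines, whereas those of Mtr, Got1, Apip and Mat2b held under every alternative run. Of the regulators, Myc, which drives Odc1 transcription (0.02, adjusted p = 0.45), its partner Max (-0.005, adjusted p = 0.84) and Nfe2l2 (0.03, adjusted p = 0.10) were not called. The relatives Sat2, Satl1, Aoc1, Azin2 and Oaz3 were under 1 TPM in at least 1 line and were not tested. Satl1 had a mean of at most 0.01 TPM, and Sat2 and Azin2 had means of at most 4.20 and 4.31 TPM in any line with DMSO, far below Sat1 and Azin1.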

How the data were processed

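The authors deposited gene-level TPM, 1 file per library. Per the labels' protocols, an RNeasy Mini kit and a TruSeq stranded mRNA kit were used. HISAT2 2.2.0, RSEM 1.3.0 and the build GRCm38 appear, without roles, in the submitters' processing notes. Strand setting, annotation and filters: not given in the sources used here. Of 55401 gene IDs, 99.5% were found in GENCODE M21, which gave positions and transcript sequences. No isoform values were used here.

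Differences were fitted with limma 3.58.1 in R 4.3.3 on log2(TPM + 1), with an intensity trend, two-sided, and Benjamini-Hochberg adjustment over genes whose mean reached 1 TPM in the line, in every line (average over lines) or in any line (between lines). A log2 difference on this scale understates the change of low genes. Group means are ± SD, n = 3. The SE of a mean over lines holds the spread within groups only. The script was tested on simulated data. The 10 genes and all lists were chosen with earlier results of these data known. Named beside the 10 genes were, of each list, all called genes and up to 3 with the smallest p, and the 5 genes most like Sat1. Mat2a was named outside this rule. Oat, Mtap, the untested relatives and the overlapping genes were added after their values were seen.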

Additional observations from a re-analysis of the deposited data

Results flagged for a closer look

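Srm and Oaz2 each had 1 line in which all RECTAS libraries lay above the DMSO libraries and 1 in which all lay below. Over all tested genes in the 7 lines together, 10.1% of pairs of gene and line lay above and 14.2% below. The share of all genes with both directions is not given here, so neither gene is read as unusual. Srm differed by 0.15 in B16 and by -0.18 in Pan02, and Oaz2 by 0.056 in EG7 and by -0.073 in CT26, on the log2(TPM + 1) scale. For Oaz2 in EG7 the groups were barely apart, with the highest DMSO library at 29.27 TPM and the lowest RECTAS library at 29.41 TPM. The difference between the lines was not tested.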

How the results depend on the processing

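The alternatives were a pseudocount of 0.1 TPM, median-ratio scaling, quantile normalization, no filter or one of 5 TPM, no intensity trend, the replicate number as a replicate block, leaving out each library or line, and, chosen after seeing the data, the main replicate axis as a covariate, which by construction can change calls but no difference. The mean Sat1 difference stayed between 0.29 and 0.34 and that of Azin1 between -0.13 and -0.10. Sat1 in B16 was 0.33 with median-ratio scaling, against 0.26. Without scaling, the median difference of all genes tested in B16 was -0.06. Without the line EG7, 1 pathway gene was called higher in place of 3. Genes called among the 10 ranged from 0 to 3 in B16 (Srm and Azin1 beside Sat1 with the axis as a covariate or without RECTAS replicate 1), 1 to 2 in CT26 (Odc1, with the axis) and Pan02 (Srm, with the filter of 5 TPM), and 0 to 1 in LLC, MC38 and WEHI3. Sat1 lost its call without B16 DMSO replicate 1 or 2 or RECTAS replicate 3, and without any library of MC38 or WEHI3 except DMSO replicate 2 and DMSO replicate 3, respectively. In MC38 and WEHI3 it also lost it with no filter and with no intensity trend. Same-numbered libraries deviated together in 2 of 21 pairs, both in LLC (correlation over 0.1, range -0.12 to 0.29), and 7 of 21 matched their own number best. Low correlations over all genes cannot show that same-numbered libraries were unpaired. The main fits did not use the numbers, and the block is given as an alternative. With the replicate block, 0 of the 10 genes were called in B16, MC38 and WEHI3, and 4 pathway genes were called higher and 7 lower. Slc7a1 was not called with no filter (adjusted p = 0.059) or without CT26, EG7 or MC38; Dhps without B16, EG7 or WEHI3; Enoph1 with either scaling or without CT26 or Pan02. Aldh18a1 was not called in 22 of 57 settings. The causes were not tested. Unknown depth limits all values under about 1 TPM.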
